A study of Mus musculus with 2 samples.

Results

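Whole genome bisulfite sequencing (WGBS) of primary osteoblasts was searched for distal DNA that was low in methylation in wild-type (WT) cells and stayed at that level in cells that had lost all 3 Tet genes (TCKO). The genome was cut into 200 bp bins, and a bin was called kept when it lay on an autosome, held at least 4 CG cytosines counted per strand, had a mean of at least 4 calls per cytosine in each library, had a methylation level of 10 to 40% in WT and a TCKO level within 5 percentage points of it, and had its midpoint more than 2 kb from every transcription start site (TSS) of a protein-coding gene of GENCODE M21. Of 120124 distal bins at 10 to 40% in WT, 12229 (10.2%) met this rule, while 43729 (36.4%) gained 40 points or more and are called gain bins here. The WT and TCKO levels of the kept and the gain bins were used to choose them, so both are given as descriptions. Across all 2140463 testable distal bins, whatever their WT level, 35.5% lay within 5 points and 3.2% gained 40 points or more, so staying within 5 points was less frequent among low-methylated bins than among all distal bins. Of all distal bins, however, 93.2% were over 40% in WT, with a median of 78.7%, which leaves little room for a rise. The shares of the 2 sets are therefore not on equal terms.

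The cells came from 3-day-old C57BL/6 mice and were cultured for 3 days, with 1 WT library and 1 TCKO library from mice that carry floxed alleles of all 3 genes (Tet1fl/fl, Tet2fl/fl and Tet3fl/fl) and Prx1-Cre. Prx1-Cre is active in limb bud and part of the skull mesenchyme, so cells of other origin in the culture keep their Tet genes. With 1 library per genotype no difference between genotypes has a replicate check, and no test between genotypes was made. The intervals of levels and shares below are 95% Wilson intervals. The interval of a change is Newcombe's, built from the Wilson intervals of both levels. All cover counting error only, since calls on the same read or molecule are not independent, and neither are neighbouring bins. A bulk level of 30% can come from a minority of fully methylated cells or alleles or from partly methylated DNA in every cell, which cannot be told apart here.

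TET dioxygenases oxidise 5-methylcytosine (5mC), which leads to its removal, and their loss in many tissues raises methylation at enhancers, where proteins such as AP-1 and RUNX factors bind. CTCF, an insulator protein that holds chromatin loops, binds sites that are often low in methylation over a short stretch. Long stretches of intermediate methylation are common in cultured cells and tumours, and broad unmethylated stretches lie over many developmental transcription factor genes. Bisulfite sequencing reads 5mC and 5-hydroxymethylcytosine (5hmC) alike.

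The libraries held 261127589 calls (WT) and 223645082 calls (TCKO), with a median of 4 calls per autosomal cytosine in both, and pooled levels of 70.2% and 76.3%. Calls over the targeted genes were counted first. TCKO had 0.855 times the autosomal calls of WT, and 0.791, 0.784 and 0.819 times over the whole of Tet1, Tet2 and Tet3. The coding exon with the lowest TCKO to WT ratio, chosen for that ratio, had 62 and 1 calls (Tet1), 155 and 46 calls (Tet2) and 85 and 26 calls (Tet3), and 0.421%, 9.11% and 9.78% of 15439 genes had an exon as low by the same rule, so these counts alone mark the deletion less clearly in Tet2 and Tet3 than in Tet1. The promoters of 17 myeloid and osteoclast marker genes had medians of 71.6% in WT and 78.0% in TCKO, with 0 under 20% in either. Those of 27 osteoblast genes had 39.2% and 53.3%, with 9 and 5 under 20%, and those of 18 chondrocyte genes 15.7% and 19.99%, with 10 and 9 under 20%, so osteoblast promoters were not the least methylated ones in these cells. The medians were 39.2% and 69.5% for endothelial, 41.1% and 53.0% for skeletal muscle, 62.6% and 63.2% for adipocyte and 42.4% and 47.95% for neuronal genes. Whether the libraries differ in their mixture of cells was not tested.

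Sequences are shown for 3 groups of bins on which the results turn, all read from the plus strand of GRCm38. The first group is the kept bins with the most calls among those that held the CTCF consensus, with the consensus in capitals. They lie in an intron of Plcg2 (chr8:117569601-117569800), between genes with Epha3 the nearest (chr16:63872401-63872600) and between genes with Mitf the nearest (chr6:97740201-97740400).
Plcg2 intron: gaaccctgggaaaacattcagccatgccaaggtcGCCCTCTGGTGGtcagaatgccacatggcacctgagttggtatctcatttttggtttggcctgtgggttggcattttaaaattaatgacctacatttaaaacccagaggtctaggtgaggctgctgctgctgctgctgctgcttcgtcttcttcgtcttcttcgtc
near Epha3: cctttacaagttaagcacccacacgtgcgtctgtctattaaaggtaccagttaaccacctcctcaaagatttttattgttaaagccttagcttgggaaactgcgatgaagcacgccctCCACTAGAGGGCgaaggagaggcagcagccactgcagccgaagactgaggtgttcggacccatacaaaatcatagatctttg
near Mitf: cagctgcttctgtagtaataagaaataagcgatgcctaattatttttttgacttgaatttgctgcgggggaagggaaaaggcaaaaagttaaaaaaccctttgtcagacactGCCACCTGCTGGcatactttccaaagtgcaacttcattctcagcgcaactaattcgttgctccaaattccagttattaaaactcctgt

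The second group is a pair of neighbours, a kept bin and a gain bin with 800 bp between them, in the intergenic region whose nearest gene is Mdga2 (chr12:67349201-67349400 and chr12:67350201-67350400), and a pair with a gap of 600 bp in an intron of Epha3 (chr16:63859601-63859800 and chr16:63858801-63859000). Capitals mark the CG dinucleotides.
kept bin near Mdga2: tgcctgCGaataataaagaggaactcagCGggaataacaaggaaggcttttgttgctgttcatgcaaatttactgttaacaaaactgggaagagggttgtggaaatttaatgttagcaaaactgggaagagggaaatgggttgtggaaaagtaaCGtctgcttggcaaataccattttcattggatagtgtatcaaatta
gain bin near Mdga2: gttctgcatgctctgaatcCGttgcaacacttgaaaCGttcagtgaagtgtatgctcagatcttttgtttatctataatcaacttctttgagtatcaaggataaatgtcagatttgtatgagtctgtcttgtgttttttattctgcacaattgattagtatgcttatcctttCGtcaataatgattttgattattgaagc
kept bin in Epha3: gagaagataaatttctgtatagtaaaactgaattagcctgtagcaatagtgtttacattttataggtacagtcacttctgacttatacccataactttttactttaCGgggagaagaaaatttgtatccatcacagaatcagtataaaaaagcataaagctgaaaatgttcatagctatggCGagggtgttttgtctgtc
gain bin in Epha3: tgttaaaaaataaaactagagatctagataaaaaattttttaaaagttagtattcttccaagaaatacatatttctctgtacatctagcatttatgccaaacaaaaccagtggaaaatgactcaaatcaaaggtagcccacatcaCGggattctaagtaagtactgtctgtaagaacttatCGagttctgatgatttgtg

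The third group is a pair of kept bins with very many calls, in an intron of Zc3h7a (chr16:11144201-11144400) and in an intron of Peak1 (chr9:56223601-56223800), again with CG in capitals. They share an unbroken run of 85 bases on opposite strands.
Zc3h7a intron: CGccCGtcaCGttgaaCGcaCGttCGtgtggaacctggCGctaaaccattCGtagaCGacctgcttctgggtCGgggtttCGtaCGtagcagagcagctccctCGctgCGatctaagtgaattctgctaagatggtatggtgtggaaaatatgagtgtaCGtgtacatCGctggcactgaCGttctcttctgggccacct
Peak1 intron: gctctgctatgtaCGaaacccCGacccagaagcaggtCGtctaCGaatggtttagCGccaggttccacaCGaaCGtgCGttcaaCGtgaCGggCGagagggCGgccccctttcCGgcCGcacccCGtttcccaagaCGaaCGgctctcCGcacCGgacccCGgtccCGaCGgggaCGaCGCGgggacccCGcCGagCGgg

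Kept bins lay on the lower shoulder of a broad distribution of change. Among the low-methylated bins, 4.54% changed by between -5 and 0 points and 5.62% by between 0 and 5 points, 13.4% rose by 10 to 20 points, 15.2% by 30 to 40 points and 16.0% by 40 to 50 points. A further 5550 bins fell by more than 5 points. The kept bins had a median WT level of 31.6% (quartiles 23.5% and 36.7%) and a median TCKO level of 31.8% (23.7% and 36.8%), from a median of 47 calls in WT and 40 in TCKO. The corresponding medians of gain bins were 26.3% and 80%, from 43 and 39 calls. Because the gain bins started lower, they were weighted to the WT levels of the kept bins in steps of 1 point wherever a comparison below says "at equal WT level".

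**Figure D1:**
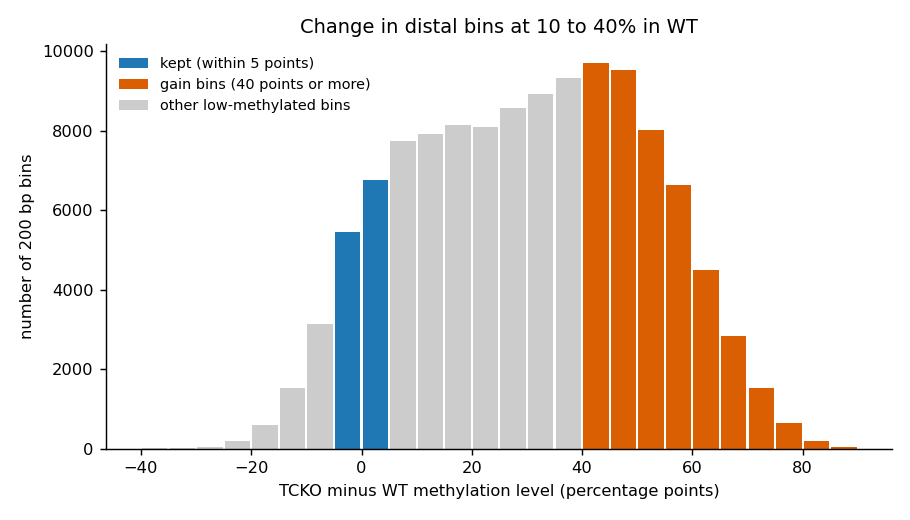
The number of distal 200 bp bins at 10 to 40% in WT (vertical axis) is plotted by the TCKO minus WT level in steps of 5 percentage points (horizontal axis). Kept bins, in blue, lie on the lower shoulder, while the highest bars fall at 40 to 50 points, which held 16.0% of the bins.

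The 5 point limit separated no distinct group. The 1550 kept bins in the last point inside the upper limit had medians of 31.6% in WT and 36.0% in TCKO, and the 1510 bins in the first point outside it had medians of 31.3% and 36.8%. Just inside the lower limit, 866 bins had medians of 31.9% and 27.3%, and just outside it 731 bins had medians of 32.04% and 26.4%. Within the WT range, the 237 kept bins at 10 to 11% had medians of 10.4% and 10.5%, and the 1155 at 39 to 40% had medians of 39.6% and 40.5%. Depth limited each bin on its own: the 95% interval of the change had a median width of 18.6 points to either side. Of the kept bins, 6625 (54.2%) had an upper bound under 20 points, and of the gain bins, 38023 (87.0%) had a lower bound over 20 points.

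Calls on the opposite DNA strand were then used, because they come from reads that the choice had not used. Bins were chosen on the cytosines of one strand by the same limits and measured on the other, with at least 2 cytosines on each. The 8299 bins chosen as kept went from a pooled 37.1% in WT to 39.3% in TCKO on the unused strand, a difference of 2.25 points, with a median change of 2.16 points (quartiles -8.27 and 13.4). At a minimum of 10 calls per cytosine the pooled difference was -1.47 points over 809 bins. Of the 8299, 25.9% stayed within 5 points on the unused strand and 2.94% gained 40 points or more. The 35039 bins chosen as gain bins went from 38.8% to 75.8%, a difference of 37.0 points. Of these, 47.4% gained 40 points or more again and 5.49% stayed within 5 points. The shares over all low-methylated bins were not counted strand by strand. Both orders of the strands were pooled, so a bin can enter in both. The median WT level of the bins chosen as kept was 36.8% on the unused strand, near the top of the 10 to 40% range that chose them. Kept bins chosen on both strands had a pooled WT level of 29.0%. The bins chosen as kept on a single strand thus stayed close to the WT level of the unused strand as a group, a level higher than the one that chose them. Single bins scattered by more than the limit that chose them.

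Single cytosines are described next, with the shares set in part by the choice of the bins. Among 18468 cytosines of kept bins with at least 10 calls in each library, 21.4% were at or below 10% in WT and 22.5% in TCKO, and 0.509% and 0.839% were at or above 90%. Among 55685 such cytosines of gain bins, the share at or below 10% went from 19.5% to 0.0772% and the share at or above 90% from 0.102% to 25.9%. Within bins, cytosines were compared with their bin's mean in each library: over 16147 cytosines the deviations in WT and TCKO had a correlation of 0.843, with standard deviations of 18.4 and 19.1 points. Over 48137 cytosines of gain bins the correlation was 0.371, with standard deviations of 13.4 and 10.4 points, and cytosines of the same bin share its reads.

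Kept and gain bins lay in different surroundings. The flanks from 400 bp to 2 kb on both sides of kept bins had a pooled level of 58.4% in WT and 62.7% in TCKO, against 70.5% and 81.6% around gain bins at equal WT level and 72.4% and 79.1% around all testable distal bins. The difference in WT flanks between kept and gain bins, -12.2 points, was -6.73 points outside 100 kb windows under 60% and -21.6 points among bins with at least 8 CG cytosines. Flanks under 40% in WT were found at 9.78% of kept bins, 2.46% of gain bins and 1.35% of all. The surrounding 100 kb window was under 60% in WT for 18.8% of kept bins (18.2 to 19.5%), 1.92% of gain bins (1.80 to 2.05%) and 3.36% of all, and under 50% for 3.96%, 0.245% and 0.427%. The window was also lower in TCKO than in WT for 21.8% of kept bins, 0.421% of gain bins and 5.42% of all.

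Read the other way, from the bins' surroundings to their fate, the gradient was steady. In windows under 50% in WT, 30.7% of 1574 low-methylated bins were kept (28.5 to 33.1%) and 6.798% were gain bins. In windows of 65 to 70%, 10.5% of 36842 were kept and 30.3% were gain bins. In windows of 75% or more, 4.08% of 16894 were kept (3.80 to 4.39%) and 56.9% were gain bins. The flanks gave the same order, from 33.8% kept at flanks under 20% to 4.20% at flanks of 80% or more, with gain bins rising from 9.12% to 54.9%. The median change of low-methylated bins was 4.58 points in windows under 50% and 43.3 points in windows of 75% or more.

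**Figure D2:**
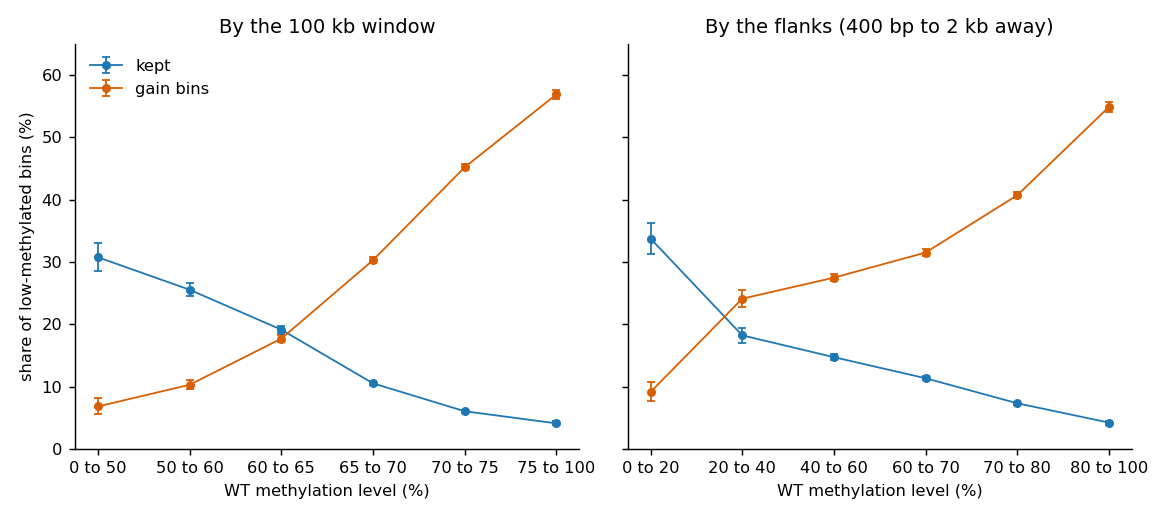
The share of low-methylated distal bins that were kept (blue) or gain bins (orange) is plotted by the WT level of the 100 kb window (left) and of the flanks (right), with 95% Wilson intervals. Kept bins fall from 30.7% to 4.08% and gain bins rise from 6.798% to 56.9% from the lowest to the highest window class.

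Profiles around the bins separated broad from narrow low methylation. Averaged over all kept bins, the WT level rose from 29.0% within 100 bp of the midpoint to 44.8% at 100 to 300 bp and 58.7% at about 1 kb, and TCKO was 4.77 points higher at 100 to 300 bp and 4.13 points higher at about 1 kb. Around gain bins the WT level rose from 25.9% to 71.2% over the same distance, and the TCKO profile was nearly flat at 78.9% in the centre and 82.0% at about 1 kb. The 2304 kept bins in windows under 60% sat in broad low methylation, with 26.8% in the centre and 37.6% at about 1 kb in WT, and 26.8% and 38.3% in TCKO. By contrast, the 3298 kept bins in windows of 70% or more were narrow dips, at 28.6% in the centre and 70.2% at about 1 kb in WT. The shoulders of these dips rose in TCKO, to 53.8% from 46.1% at 100 to 300 bp and to 65.8% from 56.8% at 300 to 500 bp, which the choice of the bins did not use. Further out the same set rose by nearly as much, by 7.09 points at 900 to 1100 bp and 6.04 points at 4900 to 5100 bp. The 100 kb windows of all testable distal bins rose by a median of 6.79 points.

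**Figure D3:**
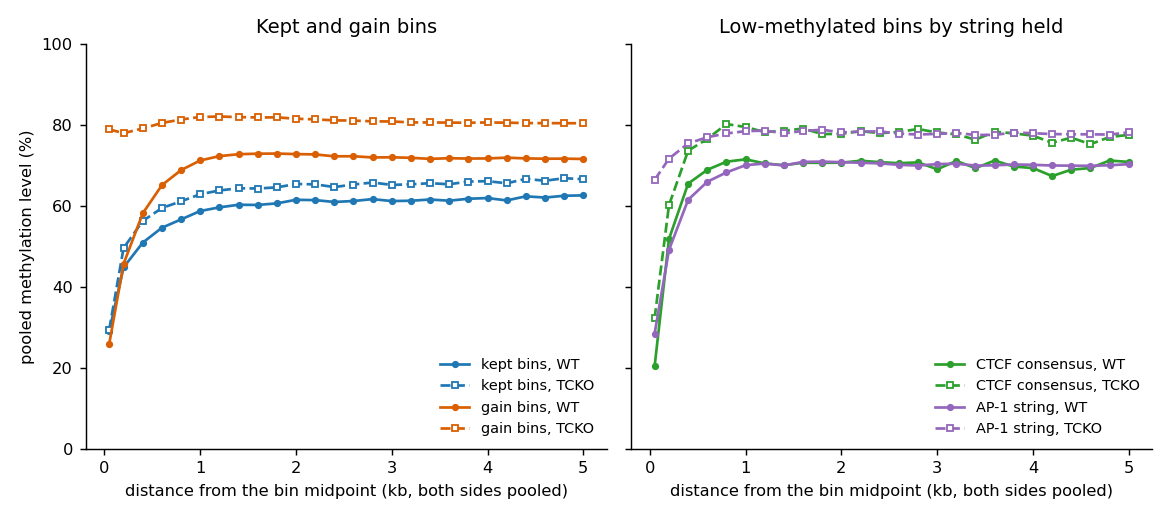
The pooled methylation level (vertical axis, percent) is plotted by distance (horizontal axis, kb) in WT (filled, solid) and TCKO (open, dashed). The left panel shows kept and gain bins by distance from the bin midpoint. The right panel shows low-methylated bins holding the CTCF consensus or the AP-1 string. Its distances run from the middle of the string, although the axis label names the bin midpoint. Within 100 bp of that point the CTCF bins go from 20.4% to 32.3% and the AP-1 bins from 28.5% to 66.4%.

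Kept bins formed 11767 single bins, 202 runs of 2, 14 runs of 3 and 4 runs of 4. Gain bins, which were more numerous, were also mostly single. A run of 4 in the homeodomain factor gene Dlx1, over an exon (chr2:71533201-71534000), had 13.7% of 256 calls methylated in WT and 12.2% of 205 in TCKO, with flanks at 10.8% and 17.7%. This run lay in wide low methylation in both libraries. Runs of 4 also lay 448.5 kb from Vrk1 (14.3% of 343 and 12.5% of 279 calls) and 218.7 kb from Igsf11 (25.2% of 230 and 28.6% of 224), and the flanks of the latter went from 68.3% to 76.9%. Of the runs of 3 among the 8 longest, that near Pou3f3, a POU domain factor gene, went from 30.1% to 32.1%, that near Dusp4, a MAP kinase phosphatase gene, from 18.9% to 19.1%, that near Tecpr1 from 25.3% to 24.8% and that near Fcgr1, an Fc receptor gene, from 34.9% to 39.5%.

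The kept bins with the most calls gave the narrowest intervals, and several of them held sequence with copies elsewhere. The bin in the Zc3h7a intron had 31.4% of 806 calls methylated in WT (28.3 to 34.7%) and 31.7% of 609 in TCKO (28.1 to 35.5%), in flanks at 82.0% and 89.2%. The bin in the Peak1 intron had 16.8% of 506 calls (13.8 to 20.3%) and 21.5% of 391 (17.7 to 25.8%), in flanks at 87.1% and 92.0%. They held 17 and 28 CG dinucleotides, against a mean of 2.86 in kept bins, and so had more cytosines to call. These bins are the pair printed above that share 85 bases, and 21.2% and 71.5% of their 64-base stretches occurred more than once in the reference, in up to 4 places. A bin in an intron of Apbb2 (chr5:66466401-66466600), with 33 CG dinucleotides and 92.5% of it masked as repeat, went from 36.9% to 41.9%. Calls at such bins may come from other copies, which was not tested. Among bins with no such copy, that in an intron of Ebi3 (chr17:55956001-55956200), a cytokine subunit gene, had 10.3% of 321 and 13.2% of 250 calls methylated, and that within Hoxc5 (chr15:102987801-102988000), a Hox factor gene of the trunk, had 12.3% of 220 and 7.36% of 231 calls. The Hoxc5 bin sat in a 100 kb window at 5.56% in WT and 6.14% in TCKO. The bin 29.4 kb from Gas1 (chr13:60147401-60147600), a Hedgehog co-receptor gene, was instead a narrow dip, at 10.3% of 213 and 13.3% of 225 calls between flanks that went from 73.9% to 86.8%.

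Copies in the genome were therefore counted for every low-methylated bin. At least 1 of a bin's 64-base stretches occurred more than once in the reference for 19.5% of kept bins (18.8 to 20.2%) and 1.82% of gain bins (1.70 to 1.95%). The share over all low-methylated bins was 7.45%. Copies were not counted over all testable distal bins, so whether kept bins exceed the genome's share is not known. Among the 8951 low-methylated bins with such a stretch, 26.7% were kept and 8.88% were gain bins. Among the 111173 without one, 8.85% were kept (8.69 to 9.02%) and 38.6% were gain bins. The gradient with the 100 kb window was present in bins without copies: 24.6% of 6790 were kept in windows under 60%, 11.3% of 46167 in windows of 60 to 70% and 5.10% of 58216 in windows of 70% or more. Bins of which at least 50% was masked as repeat made up 25.4% of kept bins, 4.76% of gain bins at equal WT level and 22.4% of all testable distal bins, so kept bins were near the genome's share and gain bins were far below it.

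Very deep bins were also more frequent, since 3.52% of kept bins had over 3 times the median calls per cytosine in either library, against 0.526% of gain bins and 1.59% of all. Without them the kept share was 9.93%.

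Density along the chromosomes was uneven. The share of low-methylated bins that were kept ran from 6.62% on chromosome 18 (5.95 to 7.36%) to 16.1% on chromosome 7 (15.3 to 17.0%). Of 2413 windows of 1 Mb, 142 held no kept bin and the median was 4. The highest count, 43 kept bins of 103 low-methylated ones and 0 gain bins, fell in chr12:115000001-116000000, among variable segments of the immunoglobulin heavy chain (Ighv). Next came chr7:60000001-61000000, with the imprinted gene Snrpn (40 kept, 0 gain bins), chr7:15000001-16000000, with the Obox homeobox family (38 and 3), and chr6:130000001-131000000, with the Klra family of natural killer cell receptors (34 and 0). A window at chr17:18000001-19000000 with vomeronasal receptor (Vmn) genes had 31 kept and 1 gain bins. These windows had lower levels in TCKO than in WT: the Ighv window went from 61.97% to 59.4%, the Snrpn window from 55.2% to 53.2% and the Klra window from 54.4% to 51.8%. The 47 windows with 20 or more kept bins held 9.98% of kept bins, 0.469% of gain bins and 1.56% of testable bins, and 29 of the 47 were lower in TCKO, against 114 of all 2413. The Hoxb window, chr11:96000001-97000000, differed from these, with 28 kept and 29 gain bins and a rise from 63.0% to 70.2%.

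Kept bins were intergenic in 61.9% of cases (61.0 to 62.7%), gain bins in 46.2% and all testable distal bins in 49.0%. Introns of protein-coding genes held 25.6% of kept bins, 42.8% of gain bins and 39.3% of all. The median distance to a protein-coding TSS was 48.3 kb for kept bins, 58.6 kb for gain bins and 55.6 kb for all, while 19.6%, 12.6% and 14.96% lay within 10 kb and 10.3%, 5.46% and 8.58% over 500 kb away. The share of kept bins thus exceeded the share of gain bins both close to and very far from a TSS.

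Kept bins held slightly fewer CG dinucleotides than gain bins, with a mean of 2.86 against 3.03 at equal WT level, and 3.05 over all. The difference of -0.17 was -0.055 once bins masked as repeat over at least 50% of their length were left out and -0.10 without bins that have copies. GC content was 41.6% in kept bins, 42.1% in gain bins at equal WT level and 41.6% in all. The relation to CG number was not steady: 11.9% of low-methylated bins with 1 or 2 CG were kept, 7.78% with 4 CG and 23.1% of 221 bins with 11 or more (18.01 to 29.1%).

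Sequence strings of DNA-binding proteins divided the low-methylated bins further. Strings were searched on both strands and wholly within the bin, and a match is a description of the letters, not evidence of binding. The CTCF consensus was held by 84 kept bins, 0.687% (0.555 to 0.850%), by 22 gain bins, 0.0503%, and by 0.0883% of all testable distal bins. At equal WT level the kept share was 14.7 times that of gain bins, and it was 7.78 times that of all bins. It was not particular to kept bins. Low-methylated bins that fell by more than 5 points held the consensus in 0.775% of cases. Those that rose by over 5 and under 20 points held it in 0.541% (0.455 to 0.643%), an interval that overlaps that of kept bins. The difference was 0.75 points outside windows under 60% and 0.73 points without bins that have copies, against 0.64 points over all kept bins, but 0.36 points at a minimum of 10 calls per cytosine and 1.61 points among bins with at least 8 CG cytosines. With a looser consensus, which drops the last of the 12 letters, relaxes some others and includes every match of the stricter one, the shares were 1.60% of kept bins, 0.631% of gain bins and 0.643% of all.

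Strings of factors that act at enhancers were instead more frequent in gain bins than in kept bins. The AP-1 string TGANTCA, bound by FOS and JUN proteins, was held by 5.22% of kept bins (4.84 to 5.63%), 12.3% of gain bins and 5.92% of all. The Runt string AACCACA, bound by RUNX factors such as the osteoblast regulator RUNX2, was held by 4.54%, 8.66% and 5.13%. The NF1 string TTGGCA gave 8.71%, 17.0% and 9.41%, the TEAD string CATTCCA 3.43%, 5.46% and 3.22%, and the E-box CAGCTG 7.13%, 9.95% and 6.43%. Kept bins were therefore near the share of all distal bins in these 5 strings, and the gain bins stood above it. The SP/KLF string GGGCGG was more frequent in kept bins (3.34%) than in gain bins (1.99%) and in all (2.35%), and so was the homeobox string TAATTA (8.23%, 5.54% and 7.34%). The CCAAT string of NFY, whose reverse complement overlaps the NF1 string by 4 letters, differed little (26.5%, 25.2% and 27.0%). For the ETS string CCGGAAG the shares were 0.711%, 0.944% and 0.826%, and for the REST string TTCAGCACC, held by 30 kept bins, they were 0.245%, 0.146% and 0.196%. The NRF1 consensus was held by 6 kept bins.

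**Figure D4:**
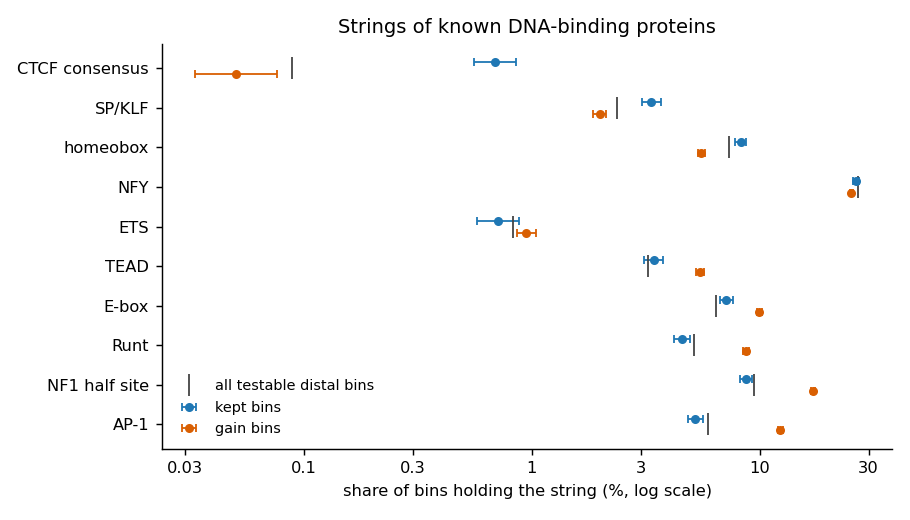
The share of kept bins (blue), gain bins (orange) and all testable distal bins (vertical ticks) that hold each string is plotted on a log scale in percent, with 95% Wilson intervals for kept and gain bins. The CTCF consensus is at 0.687% in kept and 0.0503% in gain bins, while AP-1 is at 5.22% and 12.3%.

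The same bins can be counted from the string to the change, which divides the counts above by another total. Of 353 low-methylated bins with the CTCF consensus, 23.8% were kept (19.7 to 28.5%) and 6.23% were gain bins (4.15 to 9.26%), with a median change of 9.65 points. Of 10547 with the AP-1 string, 6.05% were kept and 50.9% were gain bins, with a median change of 40.4 points, and of 7943 with the Runt string 6.99% and 47.7%, with 38.4 points. The flanks of the CTCF bins were at 70.1% in WT and 78.3% in TCKO and those of the AP-1 bins at 69.2% and 78.0%, and the median WT level of the 100 kb windows was 70.4% and 70.9%. The CTCF bins started lower, with a median WT level of 23.7% against 29.0%. Among the 298 CTCF bins with flanks of 60% or more, 22.8% were kept. Within 100 bp of the middle of the string, the CTCF bins went from 20.4% to 32.3%, a difference of 11.9 points. The AP-1 bins went from 28.5% to 66.4%, a difference of 38.0 points. CTCF bins as a group thus rose in TCKO, by less than AP-1 bins.

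The contrast was larger below the range that defined the low-methylated bins. Of all 1889 testable distal bins with the CTCF consensus, 733 (38.8%) were under 10% in WT, with medians of 1.52% in WT and 4.84% in TCKO, and 2.05% of them gained 40 points or more. Of the 126772 with the AP-1 string, 3161 (2.49%) were under 10%, with medians of 3.23% and 60.9%, and 68.1% gained 40 points or more. With the Runt string 64.5% of 1951 did so, and 43.3% of all 25434 distal bins under 10%.

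The 84 kept bins with the CTCF consensus had medians of 21.2% in WT and 21.7% in TCKO, in flanks with medians of 70.5% and 78.8%. Of them 68 had flanks of 60% or more, 5 lay in windows under 60%, 5 were masked as repeat over at least 50% of their length and 0 were very deep. The 6 with the most calls were picked after the values were seen. The bin in an intron of Plcg2, a phospholipase gene, had 28.8% of 118 calls methylated in WT (21.4 to 37.6%) and 32.7% of 113 in TCKO (24.8 to 41.8%). The bin 8.34 kb from Epha3, which encodes an ephrin receptor, had 23.2% of 112 and 25.5% of 106 calls. The bin 66.8 kb from Mitf, a transcription factor gene of melanocytes and osteoclasts, had 10.5% of 105 and 8.82% of 102 calls, while its flanks went from 49.2% to 70.8%. The bin near Scaf11 went from 10.8% to 15.6% and that in an intron of Sdsl from 14.3% to 13%. The bin near Speer4d went from 22.3% to 26.3%, but 27.7% of its 64-base stretches had copies elsewhere.

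Among bins that were not very deep and lay outside chromosome 18, 339 of 11493 kept bins had a gain bin within 1 kb (2.95%, 2.66 to 3.28%), against 5.36% of all testable distal bins, 9.08% of the low-methylated bins that were neither kept nor gain bins and 26.4% of gain bins. In the pair near Mdga2, a synaptic adhesion gene, the kept bin went from 29.0% of 107 calls (21.2 to 38.2%) to 33.0% of 109 (24.9 to 42.3%) and the gain bin from 40% of 75 (29.7 to 51.3%) to 87.9% of 66 (77.9 to 93.7%). In the pair within Epha3 the kept bin went from 31.7% of 63 (21.6 to 44.0%) to 35.3% of 68 (25.002 to 47.2%) and the gain bin, which held the AP-1 string, from 29.9% of 67 (20.2 to 41.7%) to 84.7% of 72 (74.7 to 91.2%). The intervals of the kept bins overlapped between the libraries and those of the gain bins did not, as the choice required. A pair within the Ras-family gene Rras2 had a kept bin with the AP-1 string, at 13.9% of 108 and 16.9% of 59 calls, 400 bp from a gain bin that went from 20.8% to 65.4%. In the pair near Tgfa, the gene of an EGF receptor ligand, the kept bin went from 37.1% to 38.1% and the gain bin from 37.1% to 82.3%. The kept bins of the pairs near Gm1673, in Bicd1, in Smyd3 and near Shisa2 went from 23.0% to 25.7%, from 38.3% to 38.8%, from 38.1% to 35.1% and from 16.2% to 15.9%, and their neighbours rose by between 52.8 and 68.7 points. Of the Bicd1 kept bin, 19.7% of the 64-base stretches occur elsewhere, in up to 7879 places.

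Near genes of the osteoblast programme, a smaller share of the low-methylated bins was kept than over all, although kept bins were not scarcer among testable bins. Of all testable distal bins there, whatever their WT level, 5.75 per mille were kept and 51.3 per mille were gain bins. The values over the genome were 5.71 and 20.4 per mille. Within 50 kb of the TSS of 27 osteoblast genes, 14 of 233 low-methylated bins were kept (6.01%, 3.61 to 9.83%) and 125 were gain bins (53.6%, 47.2 to 59.9%), against 10.2% and 36.4% over all low-methylated distal bins. Within 50 kb of 28 transcription factor genes of limb and mesenchyme, 78 of 330 were kept (23.6%, 19.4 to 28.5%) and 65 were gain bins (19.7%, 15.8 to 24.3%). Among testable bins near these genes, 34.1 per mille were kept and 28.4 per mille were gain bins, both above the genome's values. The 100 kb windows of the bins differed in level between these lists, with a median of 57.7% in WT for the limb and mesenchyme list and 66.4% for the osteoblast list, and their part in the difference was not tested. Near 18 chondrocyte genes 6 of 113 were kept (5.31%), near 15 endothelial genes 15 of 82 (18.3%), and near 40 imprinted genes 25 of 185 (13.5%). The counts were 9 of 74 for myeloid and osteoclast genes, 12 of 110 for skeletal muscle, 5 of 50 for adipocyte and 11 of 80 for neuronal genes. Of the 9 lists, the intervals of the osteoblast, limb and mesenchyme, and endothelial lists did not include 10.2%. Bins near the same gene are not independent of each other, which the intervals leave out, so this is no test of the lists.

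**Figure D5:**
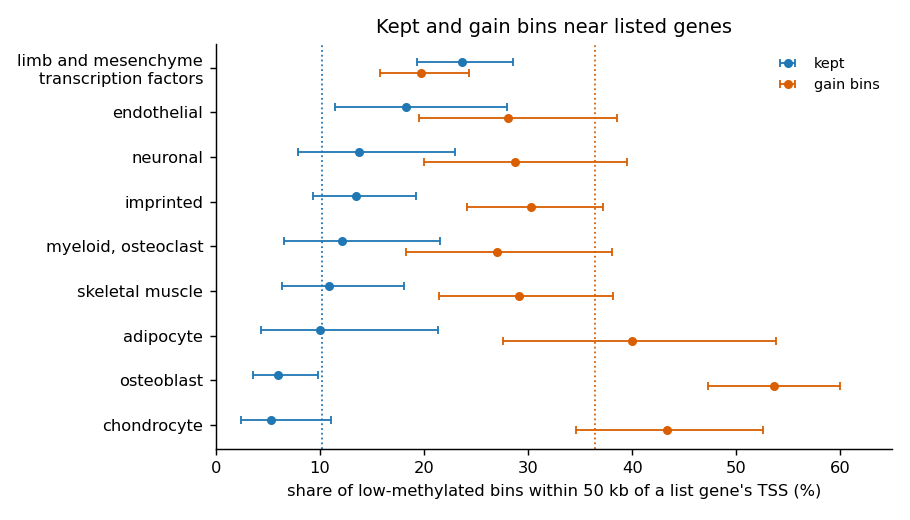
The share of low-methylated distal bins within 50 kb of a listed gene's TSS that were kept (blue) or gain bins (orange) is plotted in percent with 95% Wilson intervals, and dotted lines mark 10.2% and 36.4%, the shares over all low-methylated distal bins. The limb and mesenchyme transcription factors have 23.6% kept and the osteoblast genes 6.01%.

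The kept bins with the most calls near the listed genes were of both kinds, narrow dips and parts of wide low methylation. Near Alpl, which encodes the alkaline phosphatase of mineralising bone, a bin 39.5 kb from the TSS (chr4:137835801-137836000) had 14.3% of 91 calls methylated in WT and 10.98% of 82 in TCKO, between flanks at 73.6% and 81.5%. The TSS of Ece1 lies nearer to this bin, at 26.3 kb. A bin 2.60 kb from Bglap2, an osteocalcin gene, had 10.9% of 55 and 14.3% of 56 calls (chr3:88376001-88376200), but 50.4% of its 64-base stretches occur in up to 3 places, so calls may belong to the neighbouring osteocalcin genes. The bin 7.32 kb from Meis1, a limb homeodomain factor gene, had 13.7% of 190 and 12.2% of 172 calls, while its flanks went from 32.7% to 56.3%. At Six2, a factor of mesenchymal progenitors, 2 touching bins over an exon (chr17:85684601-85685000) had 19.2% of 130 and 21.3% of 127 calls and 11.8% of 152 and 9.93% of 141 calls, in flanks that went from 8.62% to 20.1% and from 8.74% to 17.8%. At Sox9, the master factor of cartilage, a bin 28.3 kb away had 22.2% of 45 and 20% of 45 calls.

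Genes of lineages other than bone had like examples. A bin over an exon of Pax7, the satellite cell factor gene, had 12.2% of 164 and 7.53% of 93 calls in a window at 38.3% in WT. A bin in an intron of Gad1, whose enzyme makes the transmitter GABA, had 11.9% of 168 and 13.4% of 134 calls, and an intronic bin of Mmp9, an osteoclast collagenase gene, 28.0% of 143 and 23.3% of 60. In the imprinted group, a bin 8.36 kb from Mkrn3 had 20% of 125 and 22.7% of 97 calls, with flanks that went from 60.1% to 53.3%, and a bin near Ascl2 had 29.0% of 107 and 30.6% of 72.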

How the data were processed

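WGBS of primary osteoblasts was analysed from 1 WT and 1 TCKO library, grouped by their genotype labels. Alignment by the authors used BSMAP 2.74 on GRCm38 with up to 2 mismatches and only uniquely mapped reads. The deposited values are counts, not normalized, of methylated calls and of all calls at every CG cytosine of either strand. BSMAP and CASAVA are named in the submitters' processing notes, and removal of duplicates is not described in the sources used here. Uniquely mapped reads thin out, and can be misplaced, where the reference holds near copies.

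A level is methylated calls over all calls, pooled in the bin, flank or 100 kb window. Features were read from the GRCm38 reference, its lower-case repeat masking and GENCODE M21. Copies are exact 64-base matches on either strand, counted over chromosomes and unplaced scaffolds. Strands, gains, flanks, strings and gene lists were compared by shares with 95% Wilson intervals. The scripts were tested on simulated data. Named bins were, outside chromosome 18, the 8 longest runs of kept bins, the 8 kept bins with the most calls in the shallower library among those that were not very deep, the 8 pairs of a kept and a gain bin within 1 kb with the most calls, and the 3 kept bins with the most calls within 50 kb of each of 9 gene lists, of which the text gives a part; 1 of the runs is not reported here. The bins, lists and comparisons were chosen with earlier results of these data known. Depth, CG number, limits, WT range, TSS set, deep bins, bin position and weighting were varied. The other assays of the study were not analysed here. Python 3.11.15, numpy 2.4.6, pandas 2.3.3 and matplotlib 3.10.9 were used.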

Additional observations from a re-analysis of the deposited data

How the results depend on the processing

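No paired analysis was possible because there was 1 library per genotype, and no replicate could be left out. The share of low-methylated bins that were kept, 10.2%, became 15.04% at a minimum of 10 calls per cytosine, 7.66% at 8 CG cytosines, 6.14% within 3 points, 9.45% for WT levels of 15 to 35%, 9.997% over 2 kb from every annotated TSS, 9.93% without very deep bins, 10.004% with bins shifted by 100 bp and 8.85% without bins that have copies, the last chosen after seeing the data. Narrower limits and fewer bins change this share by construction. The change on the unused strand, 2.25 points, became -1.47 points at 10 calls per cytosine (809 bins) and thus changed sign, and was 0.41 points at 8 CG cytosines, 1.92 for WT levels of 15 to 35%, 2.75 with every annotated TSS and 3.03 without very deep bins. The cause was not tested.

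The CG difference, -0.17, was -0.25 at 10 calls, -0.23 with every annotated TSS, -0.055 without repeat-masked bins and -0.10 without copies. For the CTCF consensus the difference of 0.64 points was 0.36 at 10 calls, 1.61 at 8 CG cytosines, 0.82 without repeat-masked bins and 0.96 with the looser consensus. For AP-1 it was -6.71 points, and -5.38 at 10 calls and -7.73 at 8 CG cytosines. The WT level of the flanks, -12.2 points against gain bins at equal WT level, was -15.5 at 10 calls, -21.6 at 8 CG cytosines, -11.8 within 3 points, -12.6 for WT levels of 15 to 35%, -10.4 with every annotated TSS, -11.2 without very deep bins, -11.9 with shifted bins, -11.9 without weighting, -6.73 outside windows under 60%, -13.3 without repeat-masked bins and -12.3 without copies. Of 59 alternatives computed, 25 stayed within the 95% interval of the main value, and the settings that leave out low windows, repeat-masked bins or copies and the looser consensus were added after the data were seen. At a median of 47 and 40 calls, a single kept bin cannot be told from 1 that rose by several points.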

Other observations

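The 5550 low-methylated distal bins that fell by more than 5 points in TCKO are described here by the same features. Their flanks were at 49.6% in WT and 51.3% in TCKO, 24.8% lay in 100 kb windows under 60%, 29.3% were masked as repeat over at least 50% of their length, and 31.4% lay in windows that were lower in TCKO. The CTCF consensus was held by 43 of them (0.775%) and the AP-1 string by 5.01%. Their pooled level went from 29.6% to 19.8%, which the choice fixed.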
